A study of Mus musculus with 22 samples.

Results

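Chemokines are small secreted or membrane-bound proteins that steer leukocytes along gradients, and their receptors, nearly all of them coupled to inhibitory G proteins, sit mostly on leukocytes. Lung epithelial cells (ECs) are known as a source of chemokines in allergic airway inflammation (AAI), among them CCL20, which draws CCR6-bearing dendritic cells, and the CXC ligands that draw neutrophils. Atypical receptors such as ACKR3 bind chemokines without G protein signaling and remove them. The genes described here were chosen by symbol: protein-coding genes named as a CC, CXC, CX3C or XC chemokine ligand, or as a receptor of these families including the atypical ones. Of 21793 protein-coding genes in the tables, 67 matched, 44 ligands and 23 receptors.

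RNA was measured in CD45-CD31-EpCAM+ live lung ECs sorted from C57BL/6 wildtype (WT), AhR-/- and CYP1B1-/- mice, all on the C57BL/6 background, of both sexes and over 7 weeks of age. The knockouts are whole-body, so each genotype also concerns the leukocytes of the mouse, and the control group carries no deletion. Naive mice gave 4 WT, 3 AhR-/- and 3 CYP1B1-/- libraries (steady state). House dust mite (HDM, an extract of D. farinae) was instilled once for sensitization and, 8 days later, on 4 consecutive days, and ECs were collected 72 h after the last instillation, with 4 libraries per genotype. The steady-state and HDM libraries are in tables of separate runs, so state and run cannot be told apart. Nothing says that the libraries of a group came from separate mice, so p-values measure the spread between libraries, which may be technical.

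Total counts ranged from 10476829 to 17707000 at steady state and from 9654825 to 17878442 after HDM. A few predicted genes took 12.0% to 36.5% of the protein-coding counts at steady state and 0.0115% to 88.8% after HDM, which left 1180756 to 16447855 counts for all other genes in an HDM library. Levels are given as CPM, read counts scaled to TMM-normalized library sizes over all 22 libraries, so they can be read across states. SE stands for standard error. On that scale 3 reads correspond to 0.138 to 0.213 CPM at steady state and 0.107 to 1.36 CPM after HDM, counting error only. Neither Ahr nor Cyp1b1 was lower in the libraries labeled with its knockout, and the genotype names below are those of the labels. Among the HDM libraries, the Y-linked gene Ddx3y was at 67.3 and 69.6 CPM in AhR-/- replicates 3 and 4 and at 0.0859 CPM or less in the others. At steady state it was at 19.7 to 99.8 CPM in all 10 libraries, so in WT and CYP1B1-/- the state, the run and Y-linked expression cannot be told apart. AhR-/- replicate 3 was the shallowest library outside the predicted genes.

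Of the 67 genes, 31 passed the filter on low counts at steady state, 45 after HDM and 50 over both states together. Since a gene can pass through the group in which it is high, counts over tested genes describe those genes and not the whole family. The 17 that passed nowhere, 14 ligands and 3 receptors, never exceeded 4.21 CPM, a level that Ccl12 reached in a single library. They comprise Ccl1, Ccl12, Ccl19, Ccl21b, Ccl26, Ccl27b, Xcl1, the receptors Ackr1, Ccr1l1 and Cxcr1, and 7 copies of Ccl19, Ccl21 and Ccl27 genes on unplaced scaffolds. No read was counted in any library on 5 of them, which include Ccl19, a CCR7 ligand of lymphoid tissue, and Ccl27b. The Ccl21, Ccl19 and Ccl27 genes share much of their sequence with copies, so their counts are uncertain.

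Some of the ligands can be described with their promoters. RefSeq windows of 250 bases before a start site (GRCm38.p6) were found for 27 of the ligand genes and 19 of the receptor genes. The letters GGGA, any 2 bases, then TTCC, a form of the kappaB site read on both strands, occur in 1.21% of the 32851 windows in the table, in 5 of 33 ligand windows and in 1 of 20 receptor windows. The ligand genes are Cxcl1, Cxcl2, Cxcl3, Cxcl10 and Ccl1, and the receptor gene is Ccr3. The windows of Cxcl1, Cxcl2 and Cxcl3, neighbors on chromosome 5 and ligands of the neutrophil receptor CXCR2, are shown because these genes rose together after HDM; capitals mark the match, where a forward and a reverse match overlap in the same letters.
Cxcl1 (chr5:90890995-90891244, plus strand): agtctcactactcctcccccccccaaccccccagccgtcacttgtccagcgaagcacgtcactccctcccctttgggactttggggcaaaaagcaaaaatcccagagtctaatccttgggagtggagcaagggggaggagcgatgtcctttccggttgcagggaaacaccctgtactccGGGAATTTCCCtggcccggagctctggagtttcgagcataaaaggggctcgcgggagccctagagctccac
Cxcl2 (chr5:90903649-90903898, plus strand): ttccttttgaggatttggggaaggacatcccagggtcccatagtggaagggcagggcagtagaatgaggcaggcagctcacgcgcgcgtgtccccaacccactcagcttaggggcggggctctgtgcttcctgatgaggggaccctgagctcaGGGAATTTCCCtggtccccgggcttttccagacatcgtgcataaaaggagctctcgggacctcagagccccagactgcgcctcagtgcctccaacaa
Cxcl3 (chr5:90785851-90786100, plus strand): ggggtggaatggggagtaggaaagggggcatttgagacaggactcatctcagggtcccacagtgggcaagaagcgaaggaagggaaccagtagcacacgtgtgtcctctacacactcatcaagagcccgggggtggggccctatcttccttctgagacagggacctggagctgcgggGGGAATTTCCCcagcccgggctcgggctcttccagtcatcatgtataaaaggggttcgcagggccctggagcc
The capitals read the same 11 letters in all of these windows. A match is a description of the letters and not a sign of binding, and no window was measured for binding here.

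At steady state the ECs were dominated by a small number of ligands. Per kb of exon, Cxcl16, a membrane-bound ligand of CXCR6, was highest in WT at 75.5 CPM per kb (range 67.9 to 93.9), followed by Cxcl15, a CXC ligand known from lung epithelium, at 28.9 (20.3 to 35.4). The ranges of these 2 genes did not overlap. Cxcl17, a mucosal ligand, was at 3.39 CPM per kb (2.84 to 4.00) and Cx3cl1, the membrane-bound ligand of CX3CR1, at 2.51 (2.21 to 3.06), with overlapping ranges. Ccl6 had a mean of 10.4 CPM per kb but ranged from 0.231 to 31.1. Its WT values were 55.9, 17.6, 0.813 and 0.414 CPM, and the library at 55.9 was also the highest of the steady-state libraries in the summed level of 22 hematopoietic marker genes, at 433 CPM against 115 to 200 CPM in the other 9. Whether those markers have a part in the level of Ccl6 was not tested.

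Cxcl16 was even across genotypes at steady state. The WT libraries were at 209, 214, 205 and 284 CPM, the AhR-/- libraries at 242, 225 and 280 CPM and the CYP1B1-/- libraries at 167, 272 and 239 CPM. All groups overlapped. Of the Cxcl16 exon bases, 18.3% are shared with the antisense gene Zmynd15, and the counting is not stated to use strand. Cxcl15 varied more, at 75.4, 56.4, 70.5 and 43.3 CPM in WT, 91.9, 27.9 and 19.8 CPM in AhR-/- and 13.0, 51.1 and 42.3 CPM in CYP1B1-/-. Cx3cl1 stayed between 7.80 and 12.0 CPM in all 10 libraries.

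Receptors were low at steady state. Ccr2, the monocyte receptor for CCL2 and CCL7, was the highest per kb in WT at 2.45 CPM per kb but ranged from 0.436 to 5.98. Ackr3, the scavenger of CXCL12 that is also found on structural cells, was at 1.37 CPM per kb with a range of 1.05 to 1.62. The spread of Ccr2 encloses that of Ackr3. Ccr1, Ccr7, Cxcr2, Cxcr6, Cxcr4 and Ccr6 followed, with means from 1.20 down to 0.247 CPM per kb. The receptors together summed to 16.2 to 77.7 CPM in the 10 libraries, and the ligands to 211 to 386 CPM.

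Comparing genotypes before HDM, none of the 31 ligands and receptors reached an adjusted p of 0.05 in either comparison (edgeR quasi-likelihood test with Benjamini-Hochberg adjustment over all genes). For AhR-/- against WT, 0% of the 15547 genes tested passed, and for CYP1B1-/- against WT 0.0129%. At an unadjusted p under 0.05, 3 ligands were lower in AhR-/-, namely Cxcl10, Cxcl13 and Ccl5, and 4 genes were lower in CYP1B1-/-, namely Ccr1, Cxcl9, Cxcl2 and Ccr2, where 1.69% and 5.80% of all genes were below that p in either direction. Cxcl10, an interferon-inducible ligand of CXCR3, was at 0.835, 1.24, 0.813 and 0.460 CPM in WT and at 0.359, 0.287 and 0.185 CPM in AhR-/-. These groups did not overlap, nor did those of 3.56% of all genes, with an adjusted p of 0.9999 for a log2 fold change of -1.59 (SE 0.52). Ccr1 was at 7.76, 3.09, 2.10 and 0.644 CPM in WT and 0.638, 1.01 and 0.825 CPM in CYP1B1-/-, with overlap. DESeq2 and the likelihood ratio test of edgeR also called 0 members in both comparisons. The median log2 fold change over the 31 genes was -0.38 for AhR-/- and -0.58 for CYP1B1-/-, beside -0.01 and -0.05 over all genes tested. Without WT replicate 1, the library with 433 CPM of hematopoietic markers, these medians were -0.06 and -0.26, and with the mean log2 level of those markers as a covariate 0.07 and -0.06. No dendritic or hematopoietic marker passed in naive mice either, while 18 of 19 hematopoietic markers tested in AhR-/- and 19 of 19 in CYP1B1-/- had a negative fold change.

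**Figure D1:**
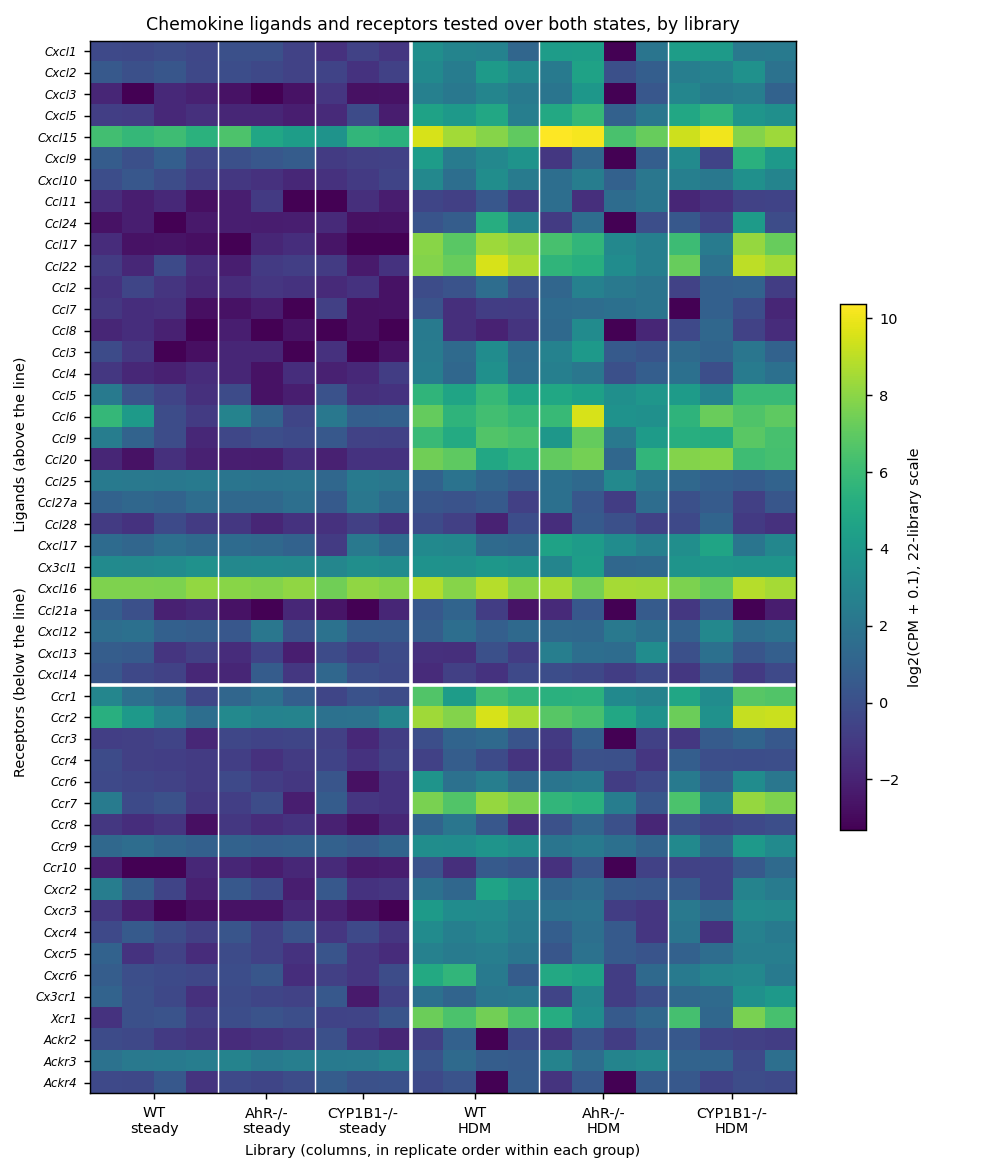
Levels of 49 of the 50 ligands and receptors tested over both states in each of 22 libraries, as log2(CPM + 0.1) in color, with libraries in columns grouped by genotype and state. Cxcl16 and Cxcl15 are bright at steady state, and after HDM Ccl17, Ccl22, Ccr2, Ccr7 and Xcr1 brighten, less so in AhR-/- replicates 3 and 4 and CYP1B1-/- replicate 2, while Ccl20 brightens in all groups and is highest in CYP1B1-/- replicate 2.

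After HDM, in WT, 34 of the 50 genes tested differed from steady state, 32 of them higher and 2 lower, where 38.4% of all 16639 genes passed, 19.0% higher and 19.4% lower. The higher genes were 17 of 30 ligands and 15 of 20 receptors, and the lower were Ccl25 and Ackr3. In AhR-/-, 28 were higher and 0 lower (20.6% of all genes passed, 10.6% higher and 10.1% lower), and in CYP1B1-/- 33 were higher and 3 lower (33.4%, 15.5% and 17.9%). Without AhR-/- steady-state replicate 4 the count in AhR-/- was 18 (8.93% of all genes), and Ccl6, Ccl8, Ccl11, Cxcl17, Ccr1, Cxcr6 and Xcr1 were among the calls lost, with adjusted p-values from 0.0517 to 0.0717. A set of 23 of the 50 genes, 15 ligands and 8 receptors, rose in each of the 3 genotypes. The share of all 16639 genes that did so was not computed and is at most the 10.6% called higher in AhR-/-. The median log2 fold change over the 50 genes was 2.93 in WT, 3.17 in AhR-/- and 3.48 in CYP1B1-/-, beside -0.11, -0.05 and -0.02 over all genes. With the mean log2 level of the hematopoietic markers as a covariate, the counts fell to 2, 11 and 3 called genes, all higher, and over all 16639 genes to 0.0421%, 6.42% and 0.685%.

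Those markers moved with the state. All 21 hematopoietic markers tested rose in WT and in CYP1B1-/- and 19 of 21 in AhR-/-, and their summed level was 2516 to 7975 CPM in the WT HDM libraries against 135 to 433 CPM in the WT steady-state libraries, although the sort took CD45- cells. None of the 22 was at 0 in a group. In each genotype the sums before and after HDM did not overlap, so the covariate fit cannot separate marker level from state. The summed level of 5 dendritic cell markers was 387 to 1688 CPM in WT after HDM and 5.34 to 13.9 CPM before. The 4 epithelial markers summed to 481 to 778 CPM after HDM and 1116 to 1646 CPM before in WT. The 5 type 1 cell markers moved further, from 16029 to 19392 CPM before to 515 to 4004 CPM after HDM in WT, and 4 of them fell. In AhR-/- after HDM their sums were 8292, 2893, 12294 and 16882 CPM, so replicates 3 and 4 stood nearest to the steady-state level of 17609 to 19200 CPM. The part of these epithelial markers in the chemokine changes was not tested. In such bulk samples, fewer cells of a type and less RNA per cell cannot be told apart.

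CCR4 ligands showed the greatest change of any ligand group in WT. Ccl17 (chromosome 8, 94810453 to 94812036) and its neighbor Ccl22 (94745590 to 94751699) encode the ligands of CCR4, the receptor of type 2 helper T cells, and dendritic cells are a well-known source. Ccl17 was counted with 7 reads over the 4 steady-state WT libraries, none above 0.239 CPM. The WT libraries after HDM were at 242, 116, 326 and 254 CPM. The log2 fold change was 11.06 (SE 1.28, adjusted p = 6.5e-06), a size that rests on those few steady-state reads. Ccl22 was at 0.418, 0.185, 0.745 and 0.230 CPM before HDM and at 232, 146, 750 and 404 CPM after it, a log2 fold change of 9.93 (SE 1.22, adjusted p = 8.3e-06).

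In the mutants both genes rose as well, with a wide spread. Ccl17 was at 85.1, 51.6, 8.19 and 5.83 CPM in AhR-/- after HDM, with replicates 3 and 4 the lower pair, and at 66.7, 5.19, 297 and 147 CPM in CYP1B1-/-, with replicate 2 the lowest. Ccl22 followed the same libraries, at 50.3, 38.8, 10.0 and 5.83 CPM in AhR-/- and 145, 3.46, 515 and 354 CPM in CYP1B1-/-. The summed hematopoietic markers were likewise lowest in those libraries, at 295 and 299 CPM in AhR-/- replicates 3 and 4 and 452 CPM in CYP1B1-/- replicate 2. Ccl17 was among the genes still called with the marker covariate in each genotype, with log2 fold changes of 5.21 in WT, 3.27 in AhR-/- and 4.90 in CYP1B1-/-. Ccl22 lost its call with the covariate in WT and CYP1B1-/- (adjusted p = 0.26 and 0.21). In AhR-/- its adjusted p reached 0.20 in 1 setting.

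Ccl20 (chromosome 1, 83116766 to 83119167) rose in every genotype, and its interaction of AhR-/- and state was 0.03 with a 95% interval from -3.11 to 3.16. It encodes the CCR6 ligand that airway epithelium is known to release. Before HDM no library was above 0.304 CPM. Afterwards WT libraries were at 170, 126, 29.5 and 44.7 CPM, AhR-/- libraries at 137, 183, 2.27 and 51.6 CPM and CYP1B1-/- libraries at 224, 248, 69.0 and 81.0 CPM. AhR-/- replicate 3 was the lowest, and it too was above every steady-state library. The log2 fold changes were 9.10 in WT, 9.13 in AhR-/- and 9.21 in CYP1B1-/- (SE 1.06, 1.21 and 1.19). With the hematopoietic covariate they were 9.28, 9.27 and 9.36, all called.

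**Figure D2:**
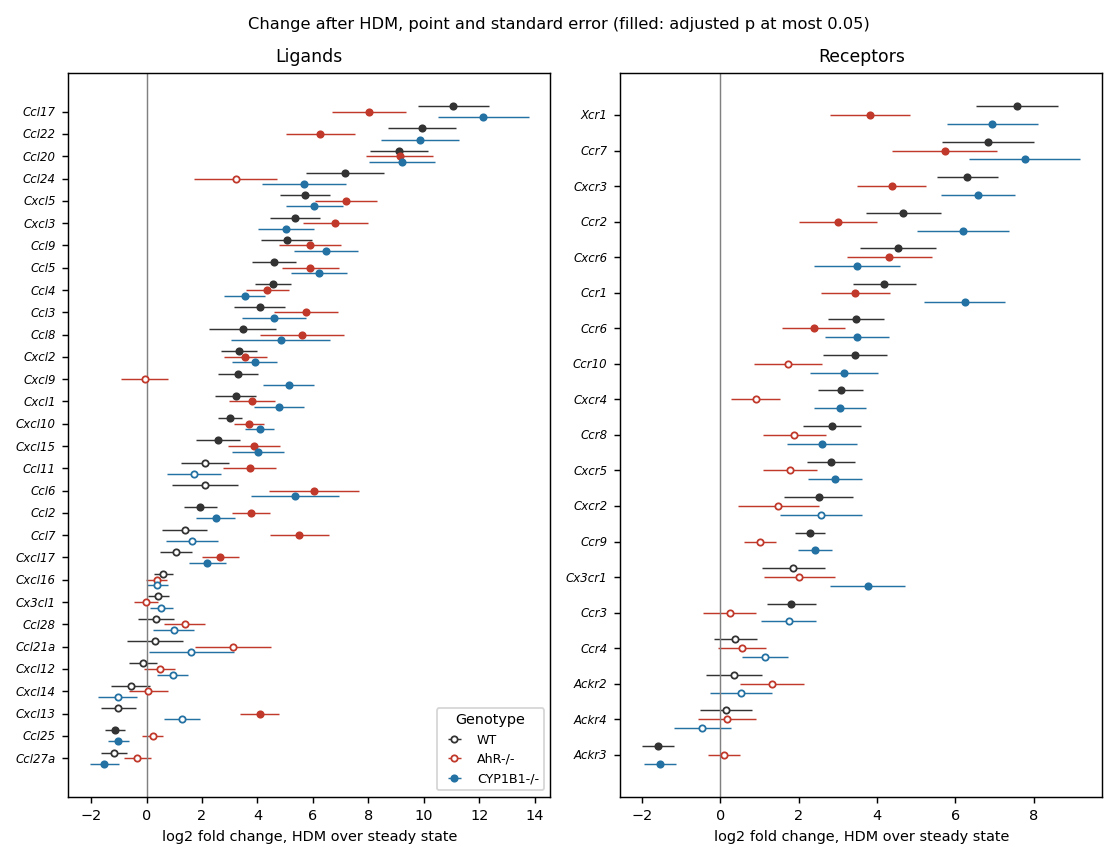
Log2 fold change of HDM over steady state for 49 of the 50 genes tested, with standard errors, in WT (black), AhR-/- (red) and CYP1B1-/- (blue), ligands left and receptors right, filled where the adjusted p is at most 0.05. Ccl17, Ccl22 and Ccl20 are at the top of the ligands and Xcr1 and Ccr7 at the top of the receptors, while Ackr3 is left of 0 in WT and CYP1B1-/-.

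Each of the 5 CXC ligands that draw neutrophils, Cxcl1, Cxcl2, Cxcl3, Cxcl5 and Cxcl15, rose in all 3 genotypes. Cxcl1 rose by a log2 fold change of 3.21 in WT (SE 0.74, adjusted p = 0.0015), from 0.716, 0.679, 0.813 and 0.644 CPM to 10.6, 7.10, 6.70 and 2.18 CPM. Cxcl2 went from 1.31, 0.926, 1.15 and 0.690 CPM to 8.83, 5.33, 17.5 and 9.42 CPM in WT. Cxcl3 had at most 0.203 CPM before HDM in WT and 6.14, 4.31, 7.30 and 4.81 CPM after it. Cxcl1, Cxcl2 and Cxcl3 are the genes with the 11 shared promoter letters shown above. Cxcl5, Cxcl15 and Ccl20, which also rose, are not among the ligand genes with a match. Cxcl2 and Cxcl3 share 5.84% and 4.29% of their stretches of 50 bases with other transcripts, mostly each other's, so a part of their counts is uncertain.

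Cxcl5, which epithelial cells are known to make, rose from 0.203 to 0.477 CPM to 24.1, 16.2, 29.5 and 5.64 CPM in WT, a log2 fold change of 5.73 (SE 0.90). In AhR-/- it rose by 7.20 and in CYP1B1-/- by 6.05 on the log2 scale, and in AhR-/- replicates 3 and 4 it was at 1.82 and 4.24 CPM. Cxcl15 reached the highest CPM of any chemokine gene, 1329 CPM in AhR-/- replicate 1. Its HDM values were 736, 360, 236 and 128 CPM in WT, 1329, 1177, 86.0 and 147 CPM in AhR-/- and 635, 1098, 225 and 327 CPM in CYP1B1-/-. The summed type 2 cell markers, surfactant genes among them, were 24266, 13233, 6709 and 4265 CPM in the same WT libraries and 71652, 35624, 7720 and 7524 CPM in AhR-/-, so the higher Cxcl15 libraries also had more of these markers. Their part in the rise of Cxcl15 was not tested. The smallest increase in this group, that of Cxcl15 in WT, had a log2 fold change of 2.57 (SE 0.78, adjusted p = 0.012).

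Ccl3, Ccl4, Ccl5, Ccl6 and Ccl9, inflammatory CC ligands and products mainly of myeloid cells and lymphocytes, rose in nearly all comparisons, 4 of 5 in WT and 5 of 5 in both mutants. Ccl9 was at 62.4, 32.5, 102 and 84.7 CPM in WT after HDM and at 5.55 CPM or less before. Ccl5 was at 50.5, 25.6, 57.1 and 25.9 CPM in WT after HDM, 29.0, 21.6, 11.4 and 14.7 CPM in AhR-/- and 18, 6.63, 61.6 and 61.7 CPM in CYP1B1-/-. Ccl3 and Ccl4 rose to between 2.28 and 11.6 CPM in WT. Ccl6 did not pass in WT (log2 fold change 2.10, SE 1.19, adjusted p = 0.175) and did in AhR-/- (6.04) and CYP1B1-/- (5.35), and the difference between AhR-/- and WT in its change did not pass either (adjusted p = 0.25). AhR-/- replicate 2 stood far above the rest for Ccl6, at 750 CPM against 60.8, 12.7 and 11.7 CPM, and it also had the highest sum of macrophage markers, 12463 CPM. Without that library the log2 fold change of Ccl6 in AhR-/- was 3.24 with an adjusted p of 0.070, and without AhR-/- steady-state replicate 3 or 4 the adjusted p was 0.068 or 0.072.

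The interferon-inducible ligands of CXCR3 were Cxcl9 and Cxcl10. Cxcl10 rose in all 3, by 3.02, 3.71 and 4.07 on the log2 scale in WT, AhR-/- and CYP1B1-/-. Cxcl9 rose by 3.30 (SE 0.73, adjusted p = 0.0011) in WT and by 5.12 in CYP1B1-/-, and its value in AhR-/- was -0.07 (SE 0.84, adjusted p = 0.96). The test of that difference, the interaction of AhR-/- and state, gave an adjusted p of 0.15. The AhR-/- libraries after HDM were at 0.358, 2.23, 0 and 1.59 CPM and the WT libraries at 18.8, 5.08, 8.37 and 12.9 CPM.

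Eotaxins, the eosinophil-drawing CCR3 ligands, were low. Ccl11 passed in AhR-/- alone, at 2.97, 0.258, 2.73 and 3.89 CPM after HDM against at most 0.402 CPM before, a log2 fold change of 3.71 (SE 0.95, adjusted p = 0.0085). WT libraries after HDM were at 0.628, 0.507, 1.22 and 0.385 CPM (log2 fold change 2.11, adjusted p = 0.059), and the AhR-/- against WT difference after HDM had an adjusted p of 0.071. Ccl24 was carried by few libraries, at 1.08, 1.52, 36.5 and 6.73 CPM in WT and 1.26, 0.576, 18.3 and 0.820 CPM in CYP1B1-/-, and it passed in both. Ccl26 was not tested.

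Among CCR2 ligands, Ccl2 rose in each genotype, by 1.93, 3.77 and 2.49 on the log2 scale in WT, AhR-/- and CYP1B1-/-. Ccl7 passed in AhR-/- only, with a log2 fold change of 5.51 (SE 1.07, adjusted p = 0.0016) over 3 steady-state reads, beside 1.38 in WT and 1.64 in CYP1B1-/-. Ccl8 passed in all 3 genotypes although its WT values of 4.93, 0.254, 0.152 and 0.321 CPM rest on replicate 1.

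Of the other ligands present before HDM, Cxcl16 and Cx3cl1 did not pass in any genotype. Cxcl16 was at 438, 238, 465 and 246 CPM in WT, 382, 185, 364 and 356 CPM in AhR-/- and 202, 138, 459 and 375 CPM in CYP1B1-/- after HDM. Its log2 fold changes were 0.60, 0.37 and 0.38, and the 95% interval in WT ran from -0.08 to 1.29. Cx3cl1 gave 0.42, -0.03 and 0.54, with HDM values of 12.7, 11.9, 15.4 and 13.0 CPM in WT and 7.31, 19.5, 2.27 and 2.47 CPM in AhR-/-. Cxcl17 passed in AhR-/- and CYP1B1-/- (the former with a log2 fold change of 2.66) but not in WT (1.07, adjusted p = 0.16). Ccl25, the CCR9 ligand, fell by 1.12 in WT and by 1.01 in CYP1B1-/- on the log2 scale, and Ccl27a fell in CYP1B1-/- by 1.52. Ccl28, a mucosal ligand of CCR3 and CCR10, and the stromal ligand Cxcl12 did not pass in any comparison, with Cxcl12 between 0.923 and 8.36 CPM throughout.

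Ccr2 was the most abundant by CPM in WT after HDM, at 343, 226, 737 and 381 CPM, a log2 fold change of 4.67 (SE 0.95). Per kb, Ccr7, which guides activated dendritic cells to lymph nodes, was higher, at 101 CPM per kb (range 50.9 to 152) against 62.4 (33.4 to 109) for Ccr2 and 28.7 (19.7 to 39.3) for Xcr1, the receptor of cross-presenting dendritic cells. The ranges of Ccr7 and Ccr2 overlapped, as did those of Ccr2 and Xcr1.

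Xcr1 had the greatest fold change of the receptors in WT. It was at 0.298, 0.926, 1.02 and 0.460 CPM before HDM and at 157, 90.6, 175 and 87.6 CPM after it (log2 fold change 7.57, SE 1.05, adjusted p = 1.6e-05). Ccr7 was at 198, 101, 301 and 198 CPM after HDM in WT (log2 fold change 6.82). Cxcr3, of activated T cells, Cxcr6, Ccr1 and Ccr6 rose by 6.30, 4.53, 4.18 and 3.47 on the log2 scale. Cxcr6 in WT was at 32.3, 51, 4.72 and 1.47 CPM after HDM and at 0.644 to 1.55 CPM before, groups that overlap. None of Xcr1, Ccr7, Cxcr3, Cxcr6, Ccr1 and Ccr6 was called with the marker covariate in any genotype. The fold changes of Ccr1, Ccr2 and Ccr6 in WT then turned negative, at -0.29, -0.51 and -0.02. Those of Xcr1, Ccr7, Cxcr3 and Cxcr6 in WT stayed positive. Over the covariate and the other settings without a left-out library they were at least 2.60, 0.79, 3.20 and 2.60. Of the CC receptors tested, 9 of 10 rose in WT, and so did all 5 CXC receptors.

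Ackr3 was the only receptor called lower in WT. It was at 3.52, 4.57, 4.88 and 5.43 CPM at steady state in WT and at 1.03, 2.54, 1.52 and 1.41 CPM after HDM. These groups do not overlap, nor do those of 38.9% of all genes. The fall of Ackr3 was 1.59 on the log2 scale (SE 0.40, adjusted p = 0.0031). CYP1B1-/- fell by 1.53 (SE 0.42, adjusted p = 0.0057). In AhR-/- it was at 6.95, 5.00 and 5.78 CPM before and 6.95, 2.83, 7.28 and 8.66 CPM after, a log2 fold change of 0.10 (SE 0.40). Ackr2 and Ackr4 did not pass in any genotype. Ccr3, the eosinophil receptor, rose in WT by 1.81 on the log2 scale (SE 0.63, adjusted p = 0.026), and its values in AhR-/- and CYP1B1-/- were 0.24 and 1.75 with adjusted p-values of 0.842 and 0.0576. Cx3cr1, the receptor of CX3CL1, rose in CYP1B1-/- by 3.77 (SE 0.95, adjusted p = 0.0036), and its values in WT and AhR-/- were 1.87 and 2.02 with adjusted p-values of 0.0699 and 0.122. Neither interaction passed for these genes.

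Of 65 other genes of chemokine signaling, 40 rose and 5 fell after HDM in WT, where 19.0% of all genes were higher and 19.4% lower, with a median log2 fold change of 1.66 beside -0.11 over all genes. The lowest p-values belonged to Gnb4, a G protein subunit, which rose by 4.00, and Ptk2, focal adhesion kinase, which fell by 1.34. In AhR-/- 24 rose and 6 fell (10.6% and 10.1% of all genes), and in CYP1B1-/- 34 rose and 7 fell (15.5% and 17.9%). With the hematopoietic covariate 0 passed in WT and CYP1B1-/- (0.0421% and 0.685% of all genes). In AhR-/- 3 were higher and 5 lower, where 6.42% of all genes passed in either direction. The AhR-/- count of 24 higher genes was 12, 13 and 15 without steady-state replicate 4, steady-state replicate 3 and HDM replicate 1, where 8.93%, 9.98% and 12.6% of all genes passed in either direction.

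**Figure D3:**
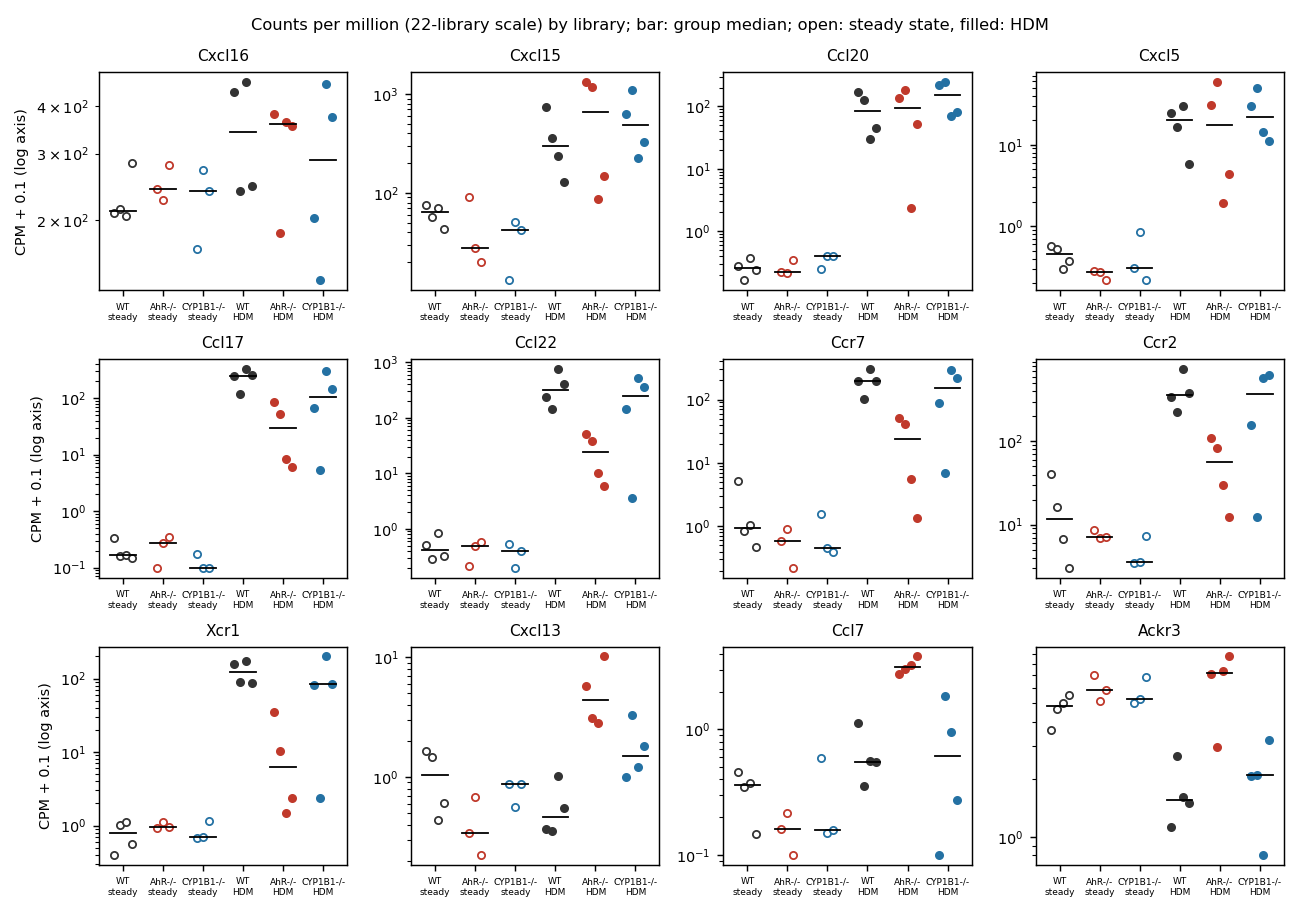
CPM + 0.1 on a log axis for 12 genes in each library, by genotype and state, open circles for steady state, filled circles for HDM and a bar at the group median. Ccl17, Ccl22, Ccr7, Ccr2 and Xcr1 are low in AhR-/- replicates 3 and 4 and CYP1B1-/- replicate 2 after HDM, Ccl20 rises in all genotypes, and Cxcl13, Ccl7 and Ackr3 are higher in every AhR-/- HDM library than in every WT HDM library. Of all genes tested after HDM, 9.60% are likewise higher in every AhR-/- library.

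Between AhR-/- and WT after HDM, 13 of the 45 genes tested differed at an adjusted p of 0.05, 3 higher and 10 lower. Of all 14161 genes tested, 22.1% passed, 9.22% higher and 12.9% lower. In 19.5% of all genes the libraries of the groups did not overlap, with AhR-/- above WT in 9.60% and below in 9.91%. Among the 45 members 3 were wholly above and 11 wholly below. Ligands were split, with Cxcl13 and Ccl7 higher and Cxcl9 and Ccl22 lower among 27 tested (median log2 fold change 0.41). Receptors were mostly lower, with 8 lower and only Ackr3 higher among 18 (median -1.36, beside -0.00175 over all genes), and 17 of 18 had a negative value. The 13 calls are not stable to the choice of libraries. None passed without AhR-/- replicate 1, 3 or 4 or without WT replicate 3 or 4, nor without AhR-/- replicates 3 and 4 together, nor with the hematopoietic covariate, where the median over the 45 genes was 0.33. In each of these settings 0% of all genes passed as well. With the replicate number as a block 0 members passed too, beside 0.00706% of all genes. The loss is thus not particular to the chemokine genes.

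The hematopoietic and dendritic marker lists moved with these receptors. Of 21 hematopoietic markers, 13 were lower in AhR-/- after HDM and 0 higher, and 4 of 5 dendritic markers were lower. The hematopoietic sums were 1571, 1545, 295 and 299 CPM in AhR-/- against 6154, 2516, 7975 and 4890 CPM in WT, and the dendritic sums 48.4 to 233 CPM against 387 to 1688 CPM. None of the markers was at 0 in either group. The other leukocyte lists overlapped, with macrophage sums of 6382, 12463, 724 and 993 CPM in AhR-/- and 5719, 2596, 2070 and 1579 CPM in WT, and 1 of 9 macrophage, 2 of 8 T cell and 0 of 5 B cell markers tested were lower. The type 1 markers were higher in AhR-/- replicates 1, 3 and 4, at 8292, 12294 and 16882 CPM, than in any WT library after HDM, and 0 of 5 passed in this comparison. As the hematopoietic sums of AhR-/- and WT do not overlap, the covariate fit cannot separate marker level from genotype. The part of the marker lists in the receptor differences was thus not tested.

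**Figure D4:**
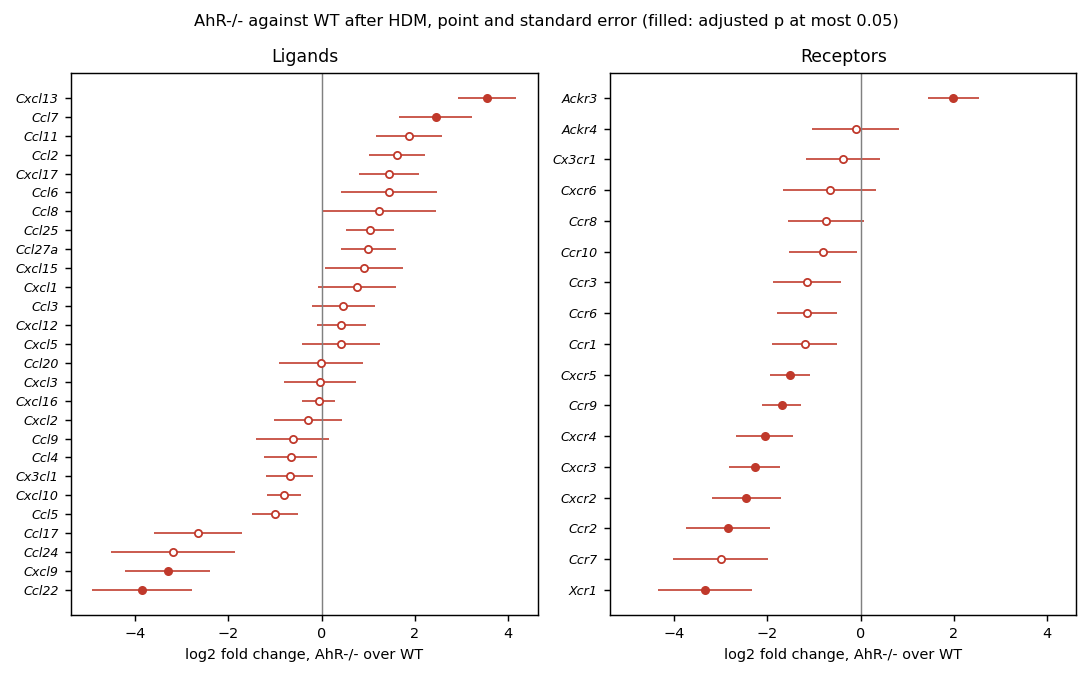
Log2 fold change of AhR-/- over WT after HDM with standard errors for 27 ligands (left) and 17 of the 18 receptors (right), filled where the adjusted p is at most 0.05. All receptors plotted but Ackr3 lie left of 0, and the ligands lie on both sides, from Ccl22 at -3.85 to Cxcl13 at 3.54.

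Of the CC receptors, 3 of 9 tested were lower, and of the CX3C and XC receptors 1 of 2. Xcr1 was at 35.3, 10.1, 1.36 and 2.30 CPM in AhR-/- and at 157, 90.6, 175 and 87.6 CPM in WT, groups that do not overlap, a fall by 3.34 on the log2 scale (SE 1.01, adjusted p = 0.038). Ccr2 was at 111, 82.9, 29.6 and 12.4 CPM in AhR-/-, below every WT library, and fell by 2.84 (SE 0.90, adjusted p = 0.042). With the covariate its value was 0.19. Ccr7 missed the threshold (-3.0, SE 1.01, adjusted p = 0.0505) with every AhR-/- library below every WT library.

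CXC receptors were lower too, 4 of the 5 tested. Cxcr3 was at 3.33, 3.61, 0.455 and 0.353 CPM in AhR-/- and at 17.9, 10.2, 9.74 and 6.03 CPM in WT (log2 fold change -2.27, SE 0.55, adjusted p = 0.026). Cxcr4, the receptor of CXCL12, fell by 2.06 and Cxcr5, the B cell receptor for CXCL13, by 1.51. Cxcr2, the neutrophil receptor, fell by 2.45, at 2.08, 2.92, 1.36 and 1.24 CPM against 3.41, 2.28, 25 and 13.5 CPM, groups that overlap. Of 4 neutrophil markers tested, 0 passed in this comparison. Ccr9, the receptor of CCL25, fell by 1.69 with values of 3.87, 4.64, 3.19 and 1.94 CPM against 10.4, 9.89, 13.7 and 10.6 CPM. The exons of Ccr9 overlap another gene over 18.8% of their length.

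Ccl22 was the ligand with the largest fall, by 3.85 on the log2 scale (SE 1.06, adjusted p = 0.030). Its AhR-/- values of 5.83 to 50.3 CPM were all below the WT values of 146 to 750 CPM. The value of its neighbor Ccl17 was -2.65 (SE 0.95, adjusted p = 0.060). Cxcl9 was lower by 3.30 (SE 0.91, adjusted p = 0.030), again with separate groups. The neutrophil-drawing ligands did not pass, at 0.76, -0.29, -0.05, 0.41 and 0.91 for Cxcl1, Cxcl2, Cxcl3, Cxcl5 and Cxcl15. Ccl20 had a log2 fold change of -0.02 with a 95% interval from -1.78 to 1.74, and Cxcl16 -0.07 with an interval from -0.75 to 0.61.

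Cxcl13, Ccl7 and Ackr3 were the genes that were higher in AhR-/-. Cxcl13, which draws B cells through CXCR5, was at 5.66, 3.01, 2.73 and 10.1 CPM in AhR-/- and at 0.269, 0.254, 0.913 and 0.449 CPM in WT after HDM. Every AhR-/- library was above every WT library, and the log2 fold change was 3.54 (SE 0.63, adjusted p = 0.026), the lowest p-value of all members. The 6 mesenchymal markers summed to 75.9, 57.6, 74.6 and 48.1 CPM in AhR-/- and 20.8, 53.8, 22.2 and 18.7 CPM in WT after HDM. Of their fold changes 6 of 6 were positive and 0 were called. In CYP1B1-/- after HDM they summed to 25.2, 159, 45.4 and 95.8 CPM. There replicate 2 had the most Cxcl13, while replicate 4, also above every AhR-/- library in these markers, had 1.70 CPM of Cxcl13. At steady state the sums were 26.6 to 212 CPM, with Cxcl13 at 0.123 to 1.55 CPM. The part of these markers in the level of Cxcl13, Ccl7 and Ackr3 was not tested. CYP1B1-/- libraries overlapped both groups in Cxcl13, at 0.902, 3.17, 1.11 and 1.70 CPM, with, against WT, an unadjusted p of 0.011 and an adjusted p of 0.999. Ccl7 was at 2.65, 2.92, 3.19 and 3.71 CPM in AhR-/- and at 1.03, 0.254, 0.457 and 0.449 CPM in WT (log2 fold change 2.44, SE 0.78, adjusted p = 0.043). Ackr3 was higher by 1.99 (SE 0.54, adjusted p = 0.030), at 2.83 to 8.66 CPM in AhR-/- against 1.03 to 2.54 CPM in WT. Over all settings that leave out a single library, the values ranged from 3.02 to 4.00 for Cxcl13, 2.28 to 2.82 for Ccl7 and 1.73 to 2.29 for Ackr3, with adjusted p-values up to 0.092, 0.12 and 0.092.

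The AhR binds DNA at sites with the core GCGTG, and the promoter windows of Cxcl13 and Ackr3, which share the direction of change in AhR-/-, each hold it once. They are shown with the core or its complement in capitals. The same letters occur on either strand in 28.2% of all windows, in 13 of 33 ligand windows and in 6 of 20 receptor windows, and no window was found for Ccl7.
Cxcl13 (chr5:95956689-95956938, plus strand): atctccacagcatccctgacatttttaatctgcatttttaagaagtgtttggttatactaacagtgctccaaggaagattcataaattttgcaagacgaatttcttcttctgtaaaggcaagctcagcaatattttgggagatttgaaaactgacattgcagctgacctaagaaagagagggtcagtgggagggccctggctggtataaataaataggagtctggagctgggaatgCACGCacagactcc
Ackr3 (chr1:90203730-90203979, plus strand): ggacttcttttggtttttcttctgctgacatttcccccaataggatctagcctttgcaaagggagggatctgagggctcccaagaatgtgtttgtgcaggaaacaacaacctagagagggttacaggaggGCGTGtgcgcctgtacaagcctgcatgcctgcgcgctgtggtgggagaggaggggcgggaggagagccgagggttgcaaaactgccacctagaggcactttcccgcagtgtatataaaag
The match lies 14 bases before the start in Cxcl13 and 120 bases before it in Ackr3, counted to the first base of the capitals. Windows of genes that fell, such as Cxcr3 and Xcr1, hold the core as well.

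Of the signaling genes, 2 were higher in AhR-/- than in WT after HDM and 23 lower among 62 tested (9.22% and 12.9% of all genes), with a median log2 fold change of -1.05 beside -0.00175 over all genes. With the covariate or the replicate number as a block 0 of them passed. The same held without AhR-/- replicate 1, 3 or 4, WT replicate 3 or 4 or AhR-/- replicates 3 and 4 together. Without WT replicate 1 there were 1 higher and 6 lower (6.13% of all genes in either direction). Wasl, an actin regulator, had the lowest p among those higher (log2 fold change 1.42), and Gnb4 among those lower (-1.99).

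**Figure D5:**
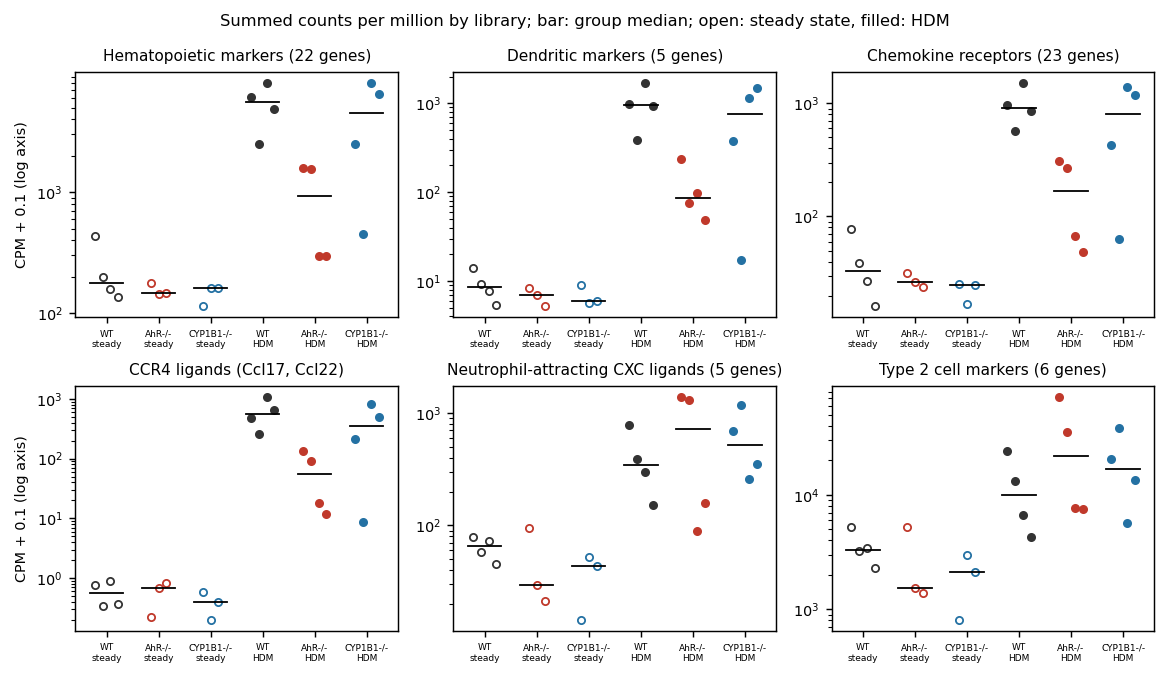
Summed CPM + 0.1 on a log axis in each library for marker lists and chemokine groups, open circles for steady state, filled circles for HDM and a bar at the group median. The receptors, the CCR4 ligands and the hematopoietic markers are low in AhR-/- replicates 3 and 4 and CYP1B1-/- replicate 2, whereas the dendritic markers are lower in AhR-/- replicate 2 than in replicate 3. The neutrophil-attracting CXC ligands are likewise low in AhR-/- replicates 3 and 4 but are highest in CYP1B1-/- replicate 2 among the CYP1B1-/- HDM libraries.

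Summed over the 23 receptors, the HDM libraries were at 976, 568, 1510 and 855 CPM in WT, 309, 268, 67.8 and 48.4 CPM in AhR-/- and 427, 63.7, 1399 and 1185 CPM in CYP1B1-/-. The AhR-/- libraries were all below the WT libraries, and CYP1B1-/- replicate 2 was within the AhR-/- range. The sums of the neutrophil-drawing ligands overlapped, from 150 to 786 CPM in WT, 88.7 to 1387 CPM in AhR-/- and 261 to 1177 CPM in CYP1B1-/-. As both are sums of CPM within a library, a rise of some genes lowers the share of others.

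Between CYP1B1-/- and WT after HDM no member passed. With edgeR, 0 of 45 members were called, beside 0% of all 14161 genes, and Cxcl13 (higher) and Cxcr2 (lower) were the 2 below an unadjusted p of 0.05, as were 1.65% of all genes. DESeq2 and the likelihood ratio test also gave 0. The intervals were wide, from -2.50 to 1.22 for Ccl22 and from -2.0 to 1.28 for Ccr2 on the log2 scale, and CYP1B1-/- replicate 2 contributes to that spread with 3.46 and 12.1 CPM against 145 to 515 and 157 to 630 CPM in the other 3.

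Whether the change after HDM differed by genotype was tested as an interaction over all 22 libraries. For AhR-/-, 0 of 50 members were called (0% of all 16639 genes) and 12 were below an unadjusted p of 0.05, as were 18.3% of all genes, with Cxcl13 lowest (5.10, SE 0.94, adjusted p = 0.15). Ccl7 (4.14), Ackr3 (1.69), Xcr1 (-3.74) and Cxcl9 (-3.37) followed with adjusted p-values from 0.15 to 0.16. DESeq2 called 4 members, with Ackr3, Cxcl9 and Xcr1 among them, and 7.43% of all genes, and the likelihood ratio test called Cxcl13 and 1.33% of all genes. For CYP1B1-/-, 0 of 50 passed (0% of all genes), and Cxcl13 alone had an unadjusted p under 0.05, while DESeq2 and the likelihood ratio test called 0. In the quasi-likelihood test no gene named above was thus shown to change differently in AhR-/- than in WT.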

How the data were processed

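RNA of sorted ECs was sequenced in 22 libraries. The deposited values are raw read counts per gene, made by the authors with bcl2fastq 2.19.1, GSNAP on mm10 and featureCounts 2.0.0 with Ensembl annotation. Strand and multi-mapping settings are not given in the sources used here. The filter filterByExpr (at least 10 counts, 15 in total) and TMM normalization were applied to protein-coding genes, and genotypes were compared within each state with edgeR 4.0.16 in R 4.3.3 (glmQLFit, robust, and glmQLFTest). All 22 libraries entered the fits of HDM against steady state and of interactions. P-values were adjusted by the Benjamini-Hochberg method over all genes tested, with a threshold of 0.05. Standard errors are the fold change divided by the root of F. Genotype fits used the TMM factors of their own state, whereas printed CPM use those of all 22 libraries. Total counts were 9654825 to 17878442 per library. The counts outside the predicted genes, 1180756 to 16447855 per library, set the counting error of the other genes. Named genes were the members past the threshold (at most 25 per comparison), the 10 ligands and 8 receptors highest per kb in WT in each state, and a list of 19 members of interest. For 1 receptor the values are not reported here, although the fits and counts include it. The members and lists were chosen with earlier results of these data known. Alternatives were DESeq2 1.42.0, the likelihood ratio test, limma 3.58.1 voom, other normalization and filtering, the replicate block, the marker covariate and libraries left out. The code was tested on simulated data.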

Additional observations from a re-analysis of the deposited data

Results flagged for a closer look

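Of 166 gene and group sets of 4 libraries, 4 held a library whose gap to the others exceeded Dixon's 95% critical value, where about 1 in 20 sets is flagged by chance. Cxcl16 was at 283.7 CPM in WT replicate 4 at steady state, above 205.1 to 214.2 CPM in the other 3. Cxcl16 was at 184.6 CPM in AhR-/- replicate 2 after HDM, below 355.6 to 382.1 CPM. Ccl11 was at 0.2576 CPM in that same library, below 2.73 to 3.888 CPM. Cxcr4 was at 0.2882 CPM in CYP1B1-/- replicate 2 after HDM, below 3.968 to 6.341 CPM.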

How the results depend on the processing

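The 13 genes called between AhR-/- and WT after HDM became 22 with limma voom (46.9% of all genes). They became 0 with the hematopoietic covariate and 0 without AhR-/- replicates 3 and 4. With a single library left out there were 0 to 16. The count was 0 without AhR-/- replicate 1, 3 or 4 or WT replicate 3 or 4. It was 3 (6.13% of all genes) without WT replicate 1 and 16 (29% of all genes) without AhR-/- replicate 2. Apart from the replicate block, the other settings gave 11 to 18 (8.41% to 32.4% of all genes). HDM against steady state gave 34 genes in WT, 28 in AhR-/- and 36 in CYP1B1-/-, and 31 to 35, 18 to 29 and 30 to 37 with a library left out, where 32.3% to 40.5%, 8.93% to 23.7% and 25.7% to 35.6% of all genes passed. With the covariate these counts were 2, 11 and 3 (0.0421%, 6.42% and 0.685% of all genes). The AhR-/- interaction, 0 genes, became 4 with DESeq2 (7.43% of all genes) and 1 with the likelihood ratio test (1.33%). It became 17 with voom (30%) and 4 with only the groups compared (6.2%). With a library left out it was 0 to 4, the 4 without AhR-/- HDM replicate 2 (6.14% of all genes). The cause was not tested. The covariate turned Ccr2 to 0.19 between AhR-/- and WT after HDM, Ccr1 to -0.29, Ccr2 to -0.51 and Ccr6 to -0.016 in the WT change, and Ccr2 to -0.52 and Cx3cr1 to -0.45 in the CYP1B1-/- change (log2). The other 4 results, both steady-state comparisons, CYP1B1-/- against WT after HDM and the CYP1B1-/- interaction, were 0 in each setting run.

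Libraries with the same replicate number had correlations of their deviations from -0.469 to 0.672 after HDM and -0.0205 to 0.243 at steady state. Different numbers gave -0.667 to 0.518 and -0.272 to 0.242. The medians were -0.176 beside 0.103 after HDM and 0.0734 beside -0.0673 at steady state. These values cannot settle whether the numbers pair the libraries. With the number as a replicate block, 0 members (0.00706% of all genes) were called between AhR-/- and WT after HDM. The median log2 fold change of the members was -0.75 there, beside -0.67 without the block. For the change in WT, AhR-/- and CYP1B1-/- the block gave 35, 26 and 36 members (38.5%, 18.7% and 32.6% of all genes). Of the signaling genes, 0 were called between AhR-/- and WT after HDM with the block. With voom 6 were higher and 44 lower, where 46.9% of all genes passed in either direction. With DESeq2 5 were higher and 34 lower (32.4%). Depth limits the low genes, as 3 reads reach 1.36 CPM in AhR-/- replicate 3 after HDM.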

Other observations

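Cxcl11, a CXCR3 ligand that the annotation classes as a polymorphic pseudogene and that was therefore not among the 67 genes, had from 0 to 18 reads per library.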
